A study of Homo sapiens with 4 samples.

Results

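The genes described here are 8 mRNAs that earlier work on other cells and tumors had named as targets of NSUN2, namely CDKN1A, CDKN1B, E2F1, GRB2, SHC1, TIAM2, HDGF and ICAM1. They were matched by gene symbol in the peak lists of an NSUN2 RNA immunoprecipitation sequencing (RIP-seq) experiment, in which RNA bound to NSUN2 is pulled down and sequenced beside the input RNA. The cells were PANC-1, a human pancreatic ductal adenocarcinoma line. One culture condition received 30 mM sodium lactate for 24 h, and its control received ddH2O for the same 24 h. Each condition had 1 immunoprecipitated (IP) and 1 input library, so no difference below has a replicate check. Of the 8 genes, 7 were among the 15016 gene symbols with a peak. They held 31 of the 48104 peaks of the lactate IP and 66 of the 95785 peaks of the ddH2O IP.

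NSUN2 is an RNA methyltransferase that places 5-methylcytosine (m5C) on transfer RNAs and on a set of mRNAs. Reader proteins such as YBX1 and ALYREF bind m5C and are known to act on the stability and nuclear export of the marked mRNA. For these 8 mRNAs the earlier work placed NSUN2-dependent m5C at different sites, the 3′ UTR for CDKN1A and HDGF and the 5′ UTR for CDKN1B. RIP-seq measures which RNA came down with the protein and does not measure the m5C mark itself.

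The 2 IP libraries were compared in merged peaks, each read in a window of 2000 bases around a peak summit. Over all 116484 windows, and leaving out MT-RNR2 and MALAT1, the summed reads were 1945000 with lactate and 3536821 with ddH2O, a 1.82-fold gap. With these genes' windows included, the sums were 9756054 and 9553835, nearly equal and with lactate 1.02-fold above, so that the gap rests on leaving out 2 very abundant RNAs. The deposited densities were already normalized to each other by a line fitted across peaks (MAnorm), and ratios below are from these densities unless library sums, meaning those without the 2 RNAs, are named. Against that scale, a scaling by library sums shifted each window by a median of 0.81 in log2 units, and each 3′ UTR window with at least 200 reads by a median of -0.04. Of 6 genes looked up as markers of PANC-1, a line that also makes the mesenchymal protein VIM, 6 had a peak with ddH2O and 4 with lactate (not EPCAM and VIM), with KRT18 the highest at 2737 lactate and 8085 ddH2O reads. EPCAM held only 1 and 3 reads. Of 10 markers of other cells, 8 had no peak, PTPRC held 0 and 3 reads, and COL1A1 held 47 and 50.

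Peaks were found in 7 of the 8 genes in each IP, and CDKN1B had none in either. Of RefSeq protein-coding symbols, 61.0% had a peak in at least 1 of the lists. GRB2 and TIAM2, the 2 longest of the 8 genes, held 24 of the 31 lactate peaks (77.4%) and 54 of the 66 ddH2O peaks (81.8%). GRB2 spans 87.6 kb and TIAM2 spans 262 kb in RefSeq (GRCh38.p14), whereas the other 6 genes span 5.00 kb to 25.3 kb. A gene with a merged peak held a median of 4 of them, while GRB2 held 25 and TIAM2 held 42. Between the conditions, 16 of the 31 lactate peaks overlapped a ddH2O peak of these genes by at least 1 base, and the reverse held for 17 of the 66 called with ddH2O. Of their 80 merged peaks 21.3% were called in both IPs, near the 22.6% of all merged peaks.

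**Figure D1:**
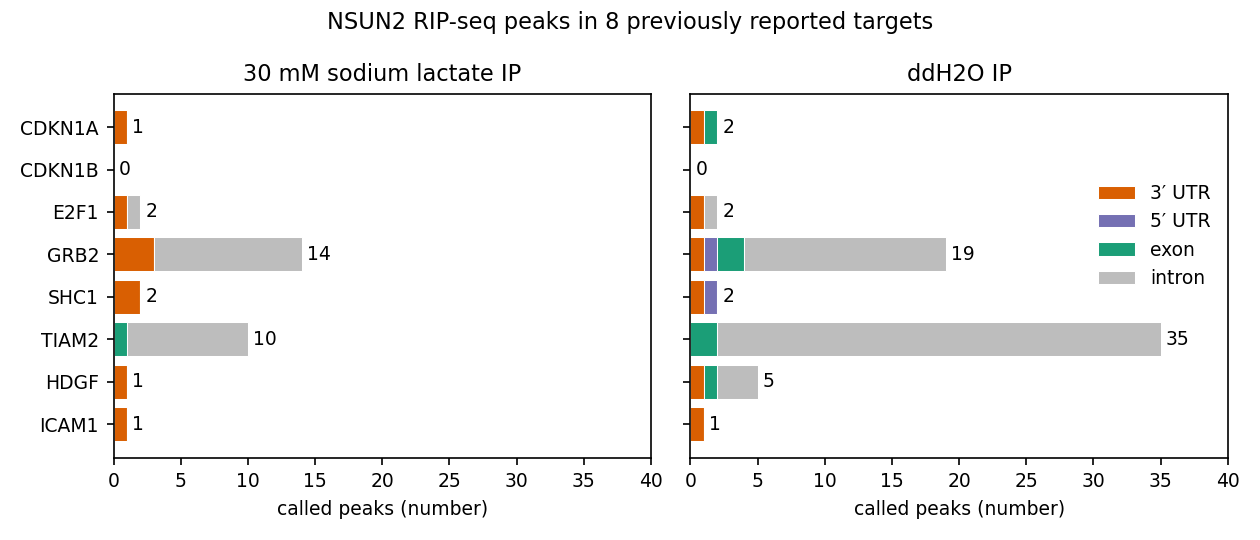
Number of called NSUN2 RIP-seq peaks (x axis) in each of the 8 genes (y axis), lactate IP on the left and ddH2O IP on the right, with colors for the annotated region. GRB2 and TIAM2 carried most peaks, nearly all in introns, and CDKN1B carried 0 in both panels.

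Pooled over the genes, most peaks fell in introns, and these were mostly those of GRB2 and TIAM2. The other 5 genes with peaks had 6 of 7 lactate peaks in 3′ UTRs and 1 in an intron, and 5 of 12 ddH2O peaks in 3′ UTRs and 4 in introns. In the lactate IP, 9 of 31 were in 3′ UTRs (29.0%, 95% Wilson interval 16.1 to 46.6), compared with 15.4% of all lactate peaks. In the ddH2O IP, 6 of 66 were in 3′ UTRs (9.09%, interval 4.23 to 18.4), compared with 12.9% of all ddH2O peaks. The gap between these shares rests in part on labels. At a GRB2 and an SHC1 site with a lactate 3′ UTR peak, the ddH2O peak was labelled as an exon. That of SHC1 was assigned to a long noncoding RNA and is not among the 66. Intron peaks made up 21 of 31 (67.7%) and 52 of 66 (78.8%), against 57.7% and 56.1% of all peaks. Exon peaks were fewer than over all peaks, 1 of 31 (3.23%, all 19.8%) and 6 of 66 (9.09%, all 21.8%). 5′ UTR peaks numbered 0 with lactate and 2 with ddH2O, 1 each in GRB2 and SHC1. These intervals cover counting error only, and peaks of 1 gene are not independent of each other.

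Of the 17 merged peaks called in both IPs, 9 were in introns (GRB2, TIAM2 and E2F1) and 8 in 3′ UTRs. CDKN1A, E2F1, GRB2, SHC1, HDGF and ICAM1 each had a 3′ UTR peak in both lists, 6 of 8 genes, whereas 20.5% of RefSeq protein-coding symbols did. That 20.5% also counts symbols with no peak at all, and among the 74 partner genes described below the share was 35.1%. Levels of the mRNAs in the inputs were not analysed, so the contrast is not one of binding per transcript. Every 3′ UTR peak of these genes passed a peak caller q-value of 0.05 against its own input, 9 of 9 with lactate and 6 of 6 with ddH2O, where 65.0% and 70.6% of all 3′ UTR peaks did. Among their intron peaks, 5 of 21 and 19 of 52 passed, against 34.8% and 41.3% of all intron peaks. The median fold enrichment of IP over input at their 3′ UTR peaks was 4.53 with lactate and 4.03 with ddH2O (3.64 and 3.51 over all 3′ UTR peaks). At their intron peaks it was 3.24 and 3.03, the same as over all intron peaks. The caller's q-value sets 1 IP library against 1 input library and does not measure the spread between cultures.

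CDKN1A encodes p21, an inhibitor of cyclin-dependent kinases. It carried a 3′ UTR peak in both IPs, at chr6:36686958-36687357 (hg38), which ends at the 3′ end of the gene. The fold enrichment there was 3.28 with lactate and 3.32 with ddH2O, so the IP stood above its input to almost the same degree in both. The window held 94 lactate reads and 124 ddH2O reads, and the normalized densities were 62.0 and 47.9. The log2 ratio of lactate over ddH2O was 0.37, with a 95% counting interval of -0.03 to 0.77 that takes in 0. By library sums it was 0.47, with an interval of 0.06 to 0.86. A weak exon peak of CDKN1A was called in the ddH2O IP only, and its window held 4 reads in each library.

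CDKN1B encodes p27, the sister inhibitor. No peak was called between its ends (chr12:12717368-12722369), and no window of another gene reached into it. The nearest peak lay in an exon of APOLD1, 3476 bases past the gene with lactate and 3550 bases past it with ddH2O. On the other side the nearest peak was an intron peak of GPR19, 24847 and 33981 bases away. Reads below the calling threshold are not in the files, so the result is that no CDKN1B peak was called, and the level of its mRNA in the inputs was not analysed here.

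E2F1 encodes a transcription factor that drives entry into S phase. Its 3′ UTR peak at chr20:33675609-33676569 showed a fold enrichment of 6.86 with lactate and 10.2 with ddH2O. The window held 108 and 180 reads, densities 72.7 and 67.9, and the log2 ratio was 0.10 (interval -0.26 to 0.45, 0.13 by library sums). On these scales the libraries differed there by less than counting error, although the enrichment over input was the lower of the pair in lactate. E2F1 also had an intron peak in both lists, with fold enrichments of 3.24 and 6.67 and only 6 and 12 reads in the merged window.

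GRB2 encodes an adaptor that links receptor tyrosine kinases to the RAS exchange factor SOS1. Its strongest peak, at chr17:75319392-75320564, was enriched 11.1-fold with lactate and 12.6-fold with ddH2O. That lactate peak stood at percentile 95.9 of all 3′ UTR peaks by fold. The lactate list gave its region as 3′ UTR, and the ddH2O list, whose peak ran longer, gave it as exon. Reads were 186 and 324, and the log2 ratio was 0.17 (interval -0.10 to 0.43).

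Another GRB2 3′ UTR peak was called in the lactate IP only, at chr17:75318700-75319029, with a fold enrichment of 5.37. Its window held 285 reads with lactate and 391 with ddH2O, the highest count of any GRB2 window in both libraries. The window also covers the neighboring ddH2O peaks, so these reads do not show how many lay under the lactate peak itself. The log2 ratio was 0.59 (interval 0.36 to 0.81), and 0.41 by library sums. The third, at chr17:75318107-75318438, held 144 and 191 reads with fold enrichments of 2.38 and 2.71 and a log2 ratio of 0.47 (interval 0.14 to 0.78). These 3 windows overlap and share reads, and so they are not 3 separate measurements.

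SHC1 encodes the adaptor that recruits GRB2 to phosphorylated receptors. It had 2 neighboring 3′ UTR peaks. The one closer to the 3′ end, at chr1:154962246-154962670, was enriched 4.02-fold with lactate and 2.90-fold with ddH2O. Reads there were 245 and 350, and the log2 ratio was 0.50 (interval 0.25 to 0.74, 0.35 by library sums). The lactate list assigned this peak to SHC1 and the ddH2O list to an exon of a long noncoding RNA that has no symbol. RefSeq also places PYGO2-AS1 at chr1:154961538-154962623, across the end of SHC1, and the reads of overlapping genes cannot be told apart. The peak further from the end, at chr1:154963277-154963800, was enriched 4.53-fold and 6.40-fold. It held 101 and 168 reads, and its log2 ratio was 0.09 (interval -0.29 to 0.44). Windows of these peaks overlap as well. A 5′ UTR peak of SHC1 was called with ddH2O only and held 2 and 4 reads.

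HDGF encodes a growth factor that also binds chromatin. Its 3′ UTR window, at chr1:156742047-156742906, was the densest of all windows of the 8 genes, with 588 lactate reads and 1291 ddH2O reads. Its densest 3′ UTR window stood at percentile 98.7 among 7408 protein-coding genes with one. The fold enrichment over input was 2.54 with lactate and 4.71 with ddH2O, at percentiles 21.5 and 67.4 of all 3′ UTR peaks of each list. The normalized densities were 458 and 415, and the log2 ratio was 0.14 (interval -0.003 to 0.28). By library sums the sign turned, to -0.27 with an interval of -0.42 to -0.13, so no direction is given for HDGF. RefSeq places MRPL24, a mitochondrial ribosomal protein gene on the same strand, at chr1:156737303-156742716. The start of MRPL24 lies inside this peak, so MRPL24 covers the 3′ end of HDGF. Reads of the overlapping genes cannot be told apart. Each of the other 4 HDGF windows was called with ddH2O only and held 0 or 1 lactate reads and 2 to 4 ddH2O reads.

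ICAM1 encodes an adhesion receptor for leukocytes, and 1 peak was called in it in each IP. The peak was in the 3′ UTR, at chr19:10285405-10285871, with a fold enrichment of 5.74 with lactate and 3.34 with ddH2O. Its window held 161 and 310 reads, the densities were 112.4 and 112.1, and the log2 ratio was 0.00 (interval -0.28 to 0.28, -0.08 by library sums). Thus the higher enrichment over input with lactate did not go with a higher IP density. An exon peak of ICAM4-AS1, an antisense gene, starts within the ICAM1 span and runs past its end, at chr19:10286232-10286667. Its window overlaps that of ICAM1 and held 155 and 301 reads, with a log2 ratio of -0.02.

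**Figure D2:**
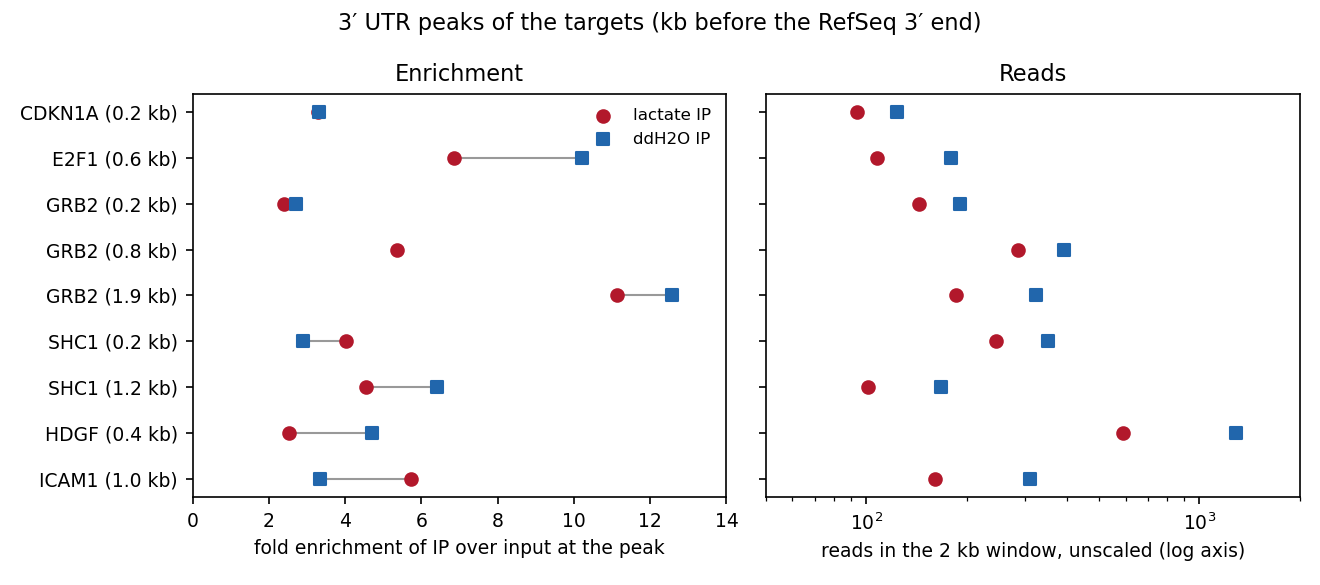
Fold enrichment of IP over input (left, x axis) and reads in the window of 2000 bases on a log axis (right, x axis) at the 9 merged 3′ UTR peaks, named by gene and distance from the RefSeq 3′ end, with circles for lactate and squares for ddH2O. Unscaled reads were lower with lactate at all 9 peaks, while of the 8 peaks with a fold in both lists the enrichment was lower with lactate at 6 and higher at 2, ICAM1 (5.74 against 3.34) and the SHC1 peak nearest the end (4.02 against 2.90).

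Set side by side, the 9 merged 3′ UTR peaks had log2 ratios from 0.00 to 0.59, with a median of 0.17. None of them passed a 2-fold difference on the deposited densities or by library sums, and HDGF did by sums over every window. Each held at least 218 reads in the 2 IPs together, and 2660 of the 14450 merged 3′ UTR peaks held at least 200, a limit chosen after the values were seen. Among those 2660, only 0.94% were over 2-fold higher with lactate and 2.03% over 2-fold lower (0.414% and 1.65% by library sums), so 0 of 9 is near this background. Their median log2 ratio was 0.03, with 5th and 95th percentiles of -0.75 and 0.72. Every 3′ UTR peak of the 8 genes lay inside that range. The sign of these ratios depends on the scaling. By sums over every window, MT-RNR2 and MALAT1 included, all 9 were below 0, from -1.16 at HDGF to -0.43 at CDKN1A, with each counting interval below 0. The dense 3′ UTR windows moved with them, to a median of -0.96, with 45.9% of them over 2-fold lower and 0.0752% over 2-fold higher. HDGF was then the 1 of 9 past 2-fold, and 7 of the 9 were above that median. No direction with lactate is therefore given for the 3′ UTRs.

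On the deposited densities the counting interval lay above 0 at 3 of the 9 windows, 2 of GRB2 and 1 of SHC1, and below 0 at none. Of the 2660 dense 3′ UTR windows, 27.5% had an interval above 0 and 22.4% below it, so 3 of 9 is near this background. By library sums it lay above 0 at 4 (CDKN1A was added) and below 0 at 1 (HDGF), with a background of 18.8% and 27.9%. With 1 IP library per condition, a shift of this size and a difference between 2 cultures of the same condition cannot be told apart. By reads, the densest 3′ UTR windows of CDKN1A, E2F1, ICAM1, SHC1 and GRB2 stood at percentiles 74.9, 80.6, 89.1, 91.7 and 93.1 among genes with one. These percentiles are of reads and not of binding per transcript, since the levels of the mRNAs in the inputs were not analysed here.

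**Figure D3:**
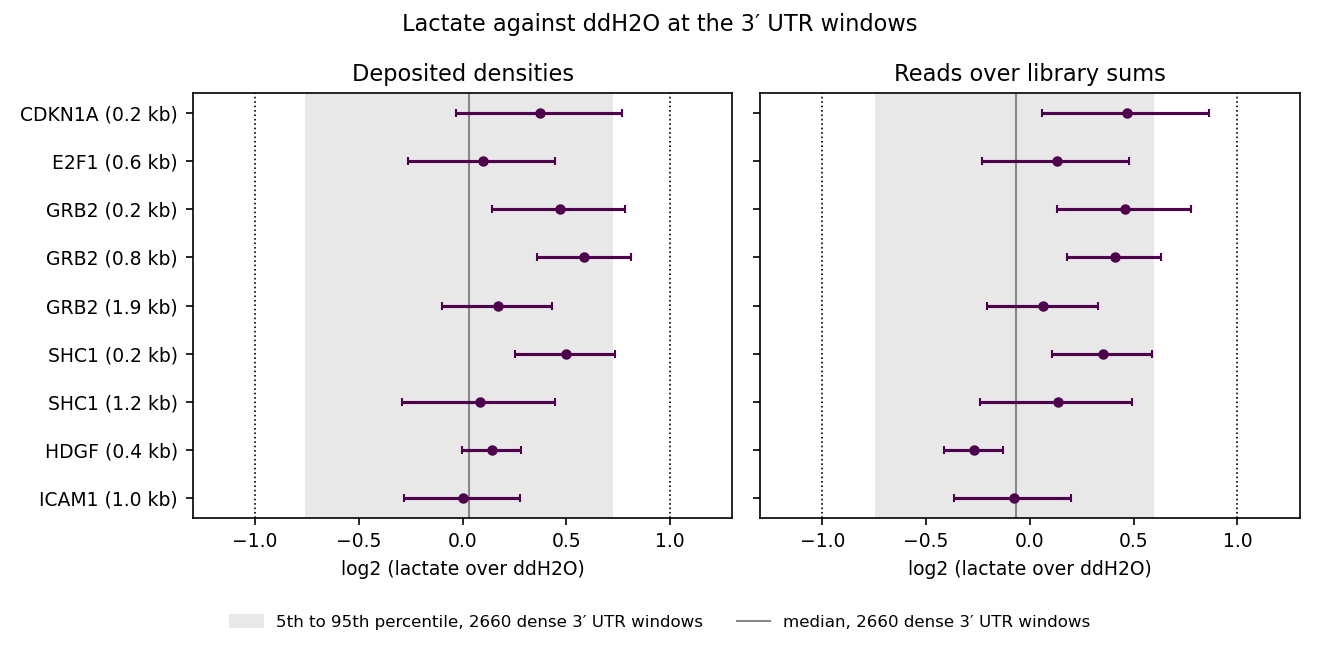
Log2 ratio of lactate over ddH2O (x axis) at the 9 merged 3′ UTR peaks with 95% counting intervals (bars), from the deposited densities (left) and from reads over library sums (right). Gray bands run from the 5th to the 95th percentile of 2660 dense 3′ UTR windows and dotted lines mark 2-fold, which no point reached; HDGF is the window that changed sides of 0 with an interval clear of it.

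TIAM2 encodes an exchange factor that activates the GTPase RAC1, and among the 7 genes with peaks it was the one with no 3′ UTR peak assigned to it. In introns were 9 of its 10 lactate peaks and 33 of its 35 ddH2O peaks. Its q-values passed 0.05 at 1 of the 10 and 11 of the 35, against 42.7% and 48.6% of all peaks. None of its windows was dense, with 0 to 13 lactate reads and 0 to 20 ddH2O reads, and medians of 1.5 and 5.5. Of the peaks assigned to it, 3 with lactate and 17 with ddH2O lay before the RefSeq start of the gene at position 154995315, on longer transcripts of the annotation that the authors used. The densest window within its RefSeq span, with 50 and 112 reads, was assigned in both lists to the 3′ UTR of TFB1M, a mitochondrial RNA methyltransferase on the opposite strand. That peak ended 579 bases before the RefSeq 3′ end of TIAM2, and the reads of the 2 overlapping genes cannot be told apart.

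Summed over its 42 windows, some of which overlap, TIAM2 had 126 lactate reads and 242 ddH2O reads. The lactate IP had 0 reads in 15 of these windows, in which the ddH2O IP had 0 to 10. The clearest difference was at an exon before the RefSeq start of the gene, chr6:154908171-154908836. Its window held 1 lactate read and 20 ddH2O reads, with a fold enrichment of 5.13 in the ddH2O IP. The log2 ratio there was -3.31, with a counting interval of -9.61 to -1.60, and -2.53 by library sums. Intron windows at chr6:154847557-154847897, also before that start, and chr6:155025624-155025868 each held 0 and 10 reads, and one at chr6:155041119-155041535 held 1 and 13. In the other direction, the intron window at chr6:155015053-155015356 held 9 and 2 reads, and 2 overlapping windows from chr6:155042993 on held 12 and 6 each. A count this low changes greatly with a few reads. Over its 42 windows, 4 were over 2-fold higher with lactate and 23 lower (54.8%, background 38.6%), 14 of the lower ones with 0 lactate reads, or 7 higher and 14 lower by library sums (33.3% lower, background 20.5%). Of these 42, 11 held no more than 3 reads in either library. The backgrounds are over all merged peaks and are not matched for reads. Among all merged peaks the median log2 ratio was -1.82 at under 5 reads and -0.77 at 5 to under 10. By library sums these medians were -0.72 and 0.13. No direction is therefore given for TIAM2.

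The GRB2 gene body showed the same kind of sparse signal beside its dense 3′ end. The 3 overlapping 3′ UTR windows of GRB2 summed to 615 lactate reads and 906 ddH2O reads, with shared reads counted more than once. Its 22 windows outside the 3′ UTR, some of which also overlap, summed to 198 and 225 reads. The densest of them, at an intron peak starting at chr17:75368032, held 35 and 43 reads, with a log2 ratio of 0.23 (interval -0.46 to 0.90). Over all 25 GRB2 windows, 4 were over 2-fold higher with lactate and 4 lower (background over all merged peaks 13.9% and 38.6%), but by library sums 10 were higher and 1 lower (background 24.5% and 20.5%), so no direction is given. An intron window at chr17:75380478-75380799 held 0 and 12 reads, whereas an intron window starting at chr17:75353091 held 8 and 0.

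**Figure D4:**
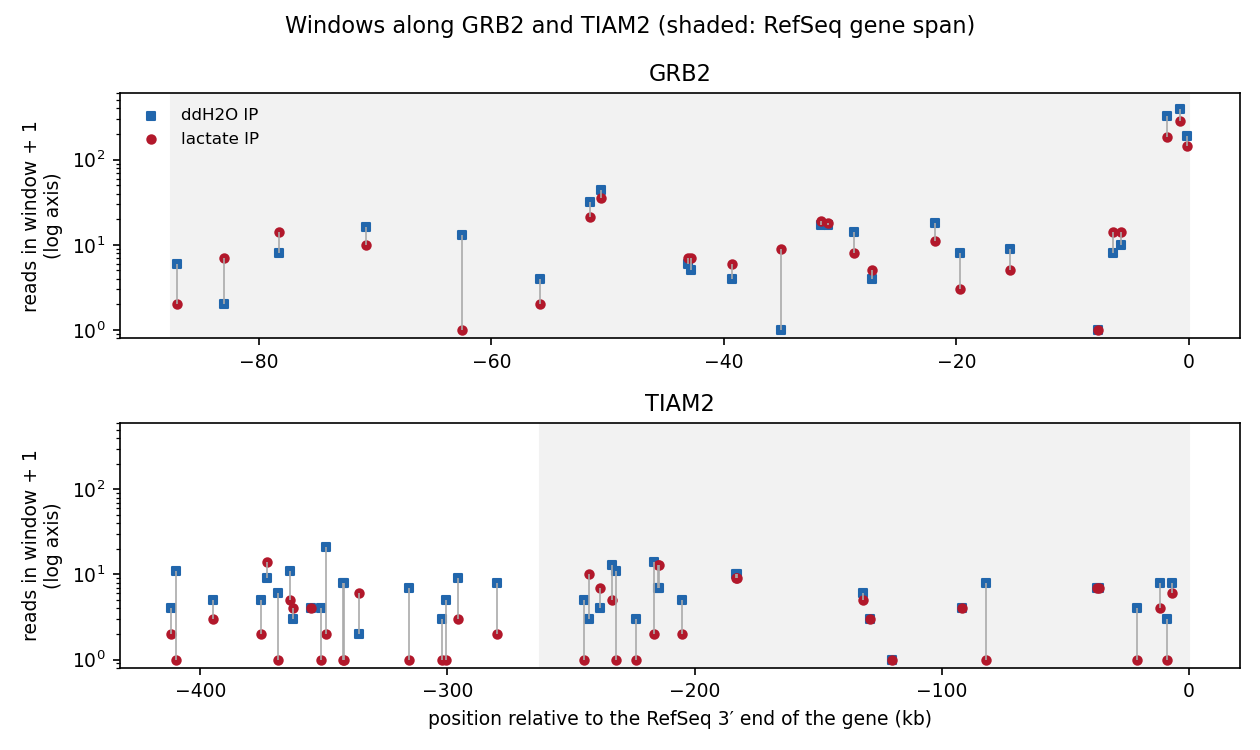
Reads plus 1 on a log axis (y axis) in each merged window of GRB2 (top) and TIAM2 (bottom) by its position in kb relative to the RefSeq 3′ end of the gene (x axis), with circles for lactate, squares for ddH2O and shading for the RefSeq gene span. GRB2 had its 3 dense windows at the 3′ end and sparse ones elsewhere, while TIAM2 had none above 20 reads and many beyond its RefSeq span.

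Taking the 80 merged peaks of the 7 genes as a set, 8 were over 2-fold higher with lactate and 31 over 2-fold lower on the deposited densities. These counts rest in part on the 1 read that is added to every window, since 18 of the 31 had 0 lactate reads and 1 of the 8 had 0 ddH2O reads. The background over all 116484 merged peaks was 13.9% higher and 38.6% lower, and the genes' counts are near it. TIAM2 gave 23 of the 31 lower windows, and without it 4 of 38 were higher and 8 lower, or 10 higher and 3 lower by library sums. All 31 of the lower windows had been called in the ddH2O IP only. Of the 8 higher ones, 6 had been called in the lactate IP only and 2 in both. A window centered on a peak of 1 list favors that library, so the direction of a window and the list that held its peak are not independent. Of the 39 windows past 2-fold, 9 held no more than 3 reads in either library, and none was in a 3′ UTR.

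Among the 41 windows with at least 10 reads in the 2 IPs together, 5 were higher and 8 lower, with a background of 11.3% higher and 24.9% lower. Their median log2 ratio was 0.10, against -0.25 over all windows with that many reads. The 32 of them outside 3′ UTRs had a median of -0.08, and 0.51 by library sums. Library sums changed this balance. They gave 17 higher and 17 lower of the 80 (background 24.5% and 20.5%), and 10 higher and 5 lower of the 41 (background 23.5% and 13%). The median over all 80 was -0.37 on the deposited densities and 0.13 by library sums, where all merged peaks had -0.50 and 0.07. Over the 71 windows outside 3′ UTRs it was -0.72 and 0.13. With the sign turning between the scalings, no direction is given for these windows as a set.

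**Figure D5:**
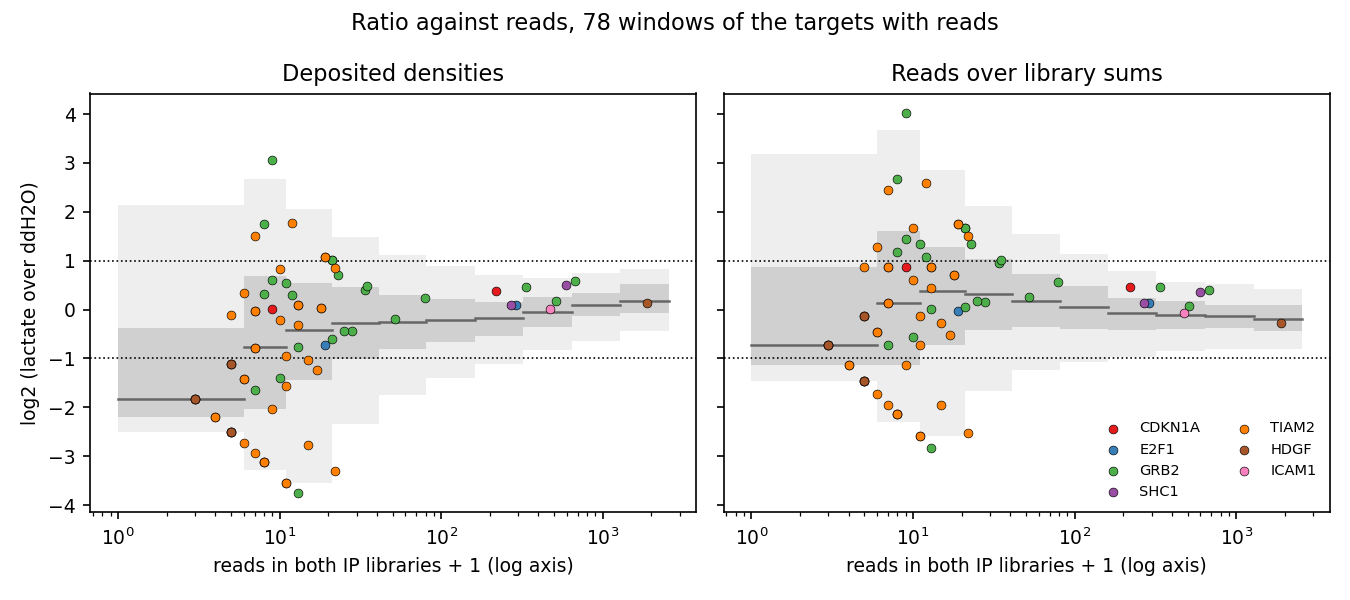
Log2 ratio of lactate over ddH2O (y axis) against reads in both IPs plus 1 on a log axis (x axis) for the 78 windows of the 7 genes that hold reads (colors), from the deposited densities (left) and by library sums (right). Light bands run from the 5th to the 95th and dark bands from the 25th to the 75th percentile of all merged peaks at each read count, gray lines their median and dotted lines 2-fold. Points past 2-fold all had under 40 reads, and points at 3 reads or fewer in each library carry no usable ratio.

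Genes that work with these 8 were looked up in 7 fixed lists, 74 genes in all. Of them, 59 had a peak (79.7%) and 26 had a 3′ UTR peak in both IPs (35.1%), compared with 61.0% and 20.5% of RefSeq protein-coding symbols, and of their 811 merged peaks 110 were over 2-fold higher with lactate and 268 lower, or 218 higher and 154 lower by library sums. Their median log2 ratio was -0.39, and 0.21 by library sums. The backgrounds are 13.9% and 38.6%, or 24.5% and 20.5% by library sums. By list, the share lower ran from 27.6% to 52.0% among the 6 lists with more than 2 windows, the HDGF family being the highest with 13 of 25, and 10 of 25 by library sums. The ratios of the named genes below are from the deposited densities. Library sums move nearly all sparse windows toward lactate, so a higher window stays past 2-fold under them and many lower ones do not, and of the 21 lower windows named here 5 stayed. Which lower windows stay is given below as a description and is no check of the higher ones. Sums over every window move them the other way. On that scale all 21 lower windows and only 3 of the 10 higher ones (GRB10, HDGFL2 and DOCK4) were past 2-fold, and of the 13 densest windows named, 8 of which were above 0 on the deposited densities, only that of TRIO was above 0. The signs below are therefore those of the deposited densities and give no direction.

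Among 17 cyclin-dependent kinase inhibitors and their G1 partners, 11 had a peak and 4 had a 3′ UTR peak in both IPs, and CDKN2A, CDKN2B, CDKN2C, CDKN2D, CDK2 and CDK4 had none. The densest windows were in the 3′ UTR of CDK6 (503 and 1044 reads, log2 ratio 0.18, but -0.19 by library sums) and an exon of CCND1, the gene of cyclin D1 (476 and 716 reads, 0.59). An intron of RBL1 was higher (21 and 11 reads). Windows in RB1 (14 and 46 reads), CDK6 (15 and 44), CCNE2 (11 and 39) and CCND1 were lower, and of these the CCND1 exon window (2 and 24 reads, -2.91) was still past 2-fold by library sums. All 9 E2F and DP factors had a peak, and 4 had a 3′ UTR peak in both IPs. E2F3 (127 and 285 reads, -0.25) and E2F4 (78 and 103 reads, 0.33) were densest, both in the 3′ UTR. TFDP2 had 1 intron window that was higher (15 and 7 reads) and 1 exon window that was lower (12 and 46 reads). E2F2 in its 3′ UTR (23 and 76 reads) and TFDP1 in an exon (12 and 42 reads) were lower, none of the 3 past 2-fold by library sums.

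Of the 14 SHC and GRB2 partners, 13 had a peak, GRB14 being the other one. CBL, a ubiquitin ligase of receptors, had the densest window, in its 3′ UTR (280 and 473 reads, 0.31), and PTPN11, a phosphatase, the next (109 and 242 reads, -0.28). Intron windows of CBL (41 and 22 reads), SOS1 (23 and 12) and GRB10 (23 and 8) were higher. Lower windows were in SOS1 (24 and 73 reads), SOS2 (8 and 27) and PTPN11, of which the PTPN11 exon window (3 and 24 reads, -2.46) stayed past 2-fold by library sums. In the HDGF family 3 of 4 genes had a peak. HDGFL3 was densest in its 3′ UTR (266 and 379 reads, 0.52), and PSIP1 had exon windows with 172 and 432 reads (-0.33) and with 21 and 99 reads (-1.62). A sparse HDGFL2 3′ UTR window was higher (16 and 7 reads), and an HDGFL2 intron window (4 and 19 reads) and an HDGFL3 3′ UTR window (4 and 16 reads) were lower. By library sums the lower windows of PSIP1 and HDGFL2 stayed past 2-fold and that of HDGFL3 did not.

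The RAC exchange factors and RAC genes, the family to which TIAM2 belongs, had a peak in 13 of 14 genes. RAC1 itself was densest, at an exon with 1212 and 2271 reads (log2 ratio 0.53, but -0.04 by library sums), followed by an intron of TRIO (79 and 64 reads, 0.97). Windows of TRIO (34 and 20 reads) and DOCK4 (16 and 5) were higher, and windows of DOCK4 (11 and 33), DOCK5 (10 and 32), TRIO (9 and 30) and DOCK1 (6 and 23) were lower, none of these 4 past 2-fold by library sums. In the ICAM and adhesion list 9 of 14 genes had a peak, and ICAM2, ICAM4, VCAM1, PECAM1 and ITGAL had none. The membrane linkers RDX (551 and 1185 reads, 0.15, but -0.24 by library sums) and EZR (411 and 1008 reads, -0.09) were densest. EZR (36 and 24 reads) and ALCAM (20 and 12) had a higher intron window each, and RDX (45 and 157 reads), ALCAM, EZR (9 and 26) and MSN (5 and 16) a lower window each, of which that of ALCAM (5 and 30 reads, -2.11) stayed past 2-fold by library sums. Of the m5C readers, YBX1 had no peak and ALYREF had an exon window with 10 and 20 reads (-0.64, interval -1.97 to 0.45).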

How the data were processed

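RIP-seq was carried out by the authors with an NSUN2 antibody and the EZ-Magna RIP kit in PANC-1 cells. The submitters' processing notes name fastp 0.20.1, HISAT2 2.1.0, MACS2 2.2.7.1, bedtools 2.29.2, HOMER 4.11.1, DiffBind and GRCh38 (hg38). The deposited peak lists give for each peak the fold enrichment of IP over input, the p-value and q-value, also as −log10, and the annotated region. The deposited merged table gives a normalized read density (signal) for each IP library. The authors' own fold and p columns of that table were not used.

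Members were matched by gene symbol in both lists, and merged peaks by at least 1 base of overlap with a member's peak. A merged peak was called 3′ UTR where either list said so, then 5′ UTR, exon or intron. Reads were recovered from the densities, which are reads plus 1 over a window of 2000 bases, moved along a line of slope 0.169 and intercept -0.204; 99.998% of values came out whole within 0.1. The recovery was tested on data simulated with this same formula, which does not test whether the deposited densities were made that way. Log2 ratios were computed from the densities, with exact binomial (Clopper-Pearson) intervals of the reads that cover counting error only, and by library sums (reads outside MT-RNR2 and MALAT1). Sums over every window were added after the values were seen. The sums run over overlapping windows, and the depth of the libraries is not given in the sources used here. With 1 library per group no test was run, and past 2-fold is a rule of size. For a single window with 0 reads in a library only the reads are given, but counts and medians over windows include such windows with the added read.

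The 8 genes, the 7 lists and the rules were chosen with earlier results of these data known. From each list the text names the 2 genes with the densest window and, with at least 20 reads, up to 4 genes past 2-fold in each direction. A search for C-and-G-rich motifs under the peaks was not run. RefSeq promoter windows (250 bases before to 50 after a start) held no member peak in any of 15 windows, against 5.14% of 35116 windows, and no sequence is shown. Scripts ran in Python 3.11.15 with scipy 1.17.1, pandas 2.3.3 and numpy 2.4.6, and plots were drawn with matplotlib 3.10.9.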

Additional observations from a re-analysis of the deposited data

How the results depend on the processing

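With a fold enrichment of at least 4, the 8 genes kept 11 of their 31 peaks with lactate and 22 of 66 with ddH2O, and the 3′ UTR share was 54.5% (lactate, main value 29.0%) and 13.6% (ddH2O, main value 9.09%). With a q-value below 0.05, 14 and 29 peaks were left, and the 3′ UTR shares were 64.3% and 20.7%. The gap between the lists rests in part on the different labels of a GRB2 and an SHC1 site. In exons and UTRs there were 10 and 14 peaks. The number of genes with a peak was 7 in each list by these settings, except 5 and 5 at a fold enrichment of at least 4. Overlap of at least 50% of both peaks left 8 of the 16 shared peaks.

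Windows over 2-fold higher with lactate numbered 8, against 5 with at least 10 reads, 0 in exons and UTRs, 17 by library sums and 1 over 4-fold. Windows over 2-fold lower numbered 31, against 8 with at least 10 reads, 3 in exons and UTRs, 17 by library sums and 17 over 4-fold (14 of these with 0 lactate reads, where the fold rests on the added read), and 5 by library sums with at least 10 reads (a pairing chosen after seeing the data). The median log2 ratio over the 80 windows, -0.37, was 0.10 with at least 10 reads, 0.13 by library sums and 0.092 without TIAM2. In the other direction, it was -0.95 without GRB2 and -0.52 with 1 merged peak kept per group of overlapping windows. In the 3′ UTR windows with at least 200 reads, a limit chosen after seeing the data, it was 0.17, and 0.13 by library sums. The 2 middle windows of the 80 hold 0 reads in both libraries, so the value of -0.37 is that of empty windows. At the densest window of each gene, library sums moved only HDGF out of its counting interval (0.14 to -0.27). Sums over every window, chosen after seeing the data, gave a median of -0.76 over the 80 windows, and turned the densest windows of CDKN1A (-0.43), E2F1 (-0.76), GRB2 (-0.49), SHC1 (-0.54), HDGF (-1.16) and ICAM1 (-0.97) below 0, while an intron window of TIAM2 stayed above it (0.61). TIAM2 has 2 densest windows with 21 reads each, that one (0.85) and the exon window (-3.31), so its value depends on which is taken.

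No paired analysis was possible because each group has 1 library, so leaving out replicates was not possible either. Windows outside 3′ UTRs held few reads, with a median of 3 lactate and 5 ddH2O reads, which limits their ratios. Why they held few reads was not tested.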

Other observations

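At a GRB2 exon, chr17:75325746-75326114, a peak was called in the ddH2O IP with a fold enrichment of 5.46 and a q-value of 1.87e-05, yet the merged window held 0 reads in both IP libraries. A TIAM2 exon peak of the lactate IP, chr6:155137593-155137792, also had 0 reads in both. Among all merged peaks, 2061 (1.77%) held 0 reads in both libraries, and 47.8% of these were annotated as exons, compared with 19.8% of all merged peaks. Why a called peak has an empty window was not tested.

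APOLD1, the gene that follows CDKN1B on the same strand, had an exon peak with a fold enrichment of 8.46 with lactate and 4.14 with ddH2O, beside a gene that had none. GRB2 and TIAM2 stood at percentiles 93.6 and 97.9 among 12396 protein-coding genes by the number of merged peaks, whereas ICAM1, with 1 merged peak, stood at percentile 0.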
